A study of Mus musculus with 3 samples.

Results

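The dual-specificity MAP kinase phosphatases were examined as 9 genes, taken by name from the GENCODE M21 annotation: Dusp1, Dusp2, Dusp4, Dusp5, Dusp6, Dusp7, Dusp8, Dusp10 and Dusp16. They are 9 of the 55536 annotated genes measured, of which 22028 are protein-coding. The material was RNA bound to chromatin, that is, RNA still attached to its gene or held in the nucleus, from bone-marrow-derived macrophages of C57BL/6J mice, which are primary cells grown from marrow progenitors. All 3 libraries belong to 1 condition: Lipid A, the TLR4-activating portion of bacterial lipopolysaccharide, at 100 ng/ml during 12 h, a washout of 12 h, and Lipid A again at 100 ng/ml during 25 min. The labels number them as biological replicates 1, 2 and 3, made from 1 µg, 250 ng and 500 ng of RNA, and list the same donor for each. They do not say whether separate animals were used, so each SD is the spread between these 3 libraries and may be technical. Cells left untreated or stimulated once were not analysed here, so the values are levels and not responses.

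MAP kinases are switched on by phosphorylation of a threonine and a tyrosine in their activation loop, and these phosphatases remove both phosphates. Dusp1, Dusp2, Dusp4 and Dusp5 encode nuclear enzymes, Dusp6 and Dusp7 encode cytoplasmic enzymes that act mainly on ERK, and Dusp8, Dusp10 and Dusp16 encode enzymes that act mainly on JNK and p38. Several of the genes are switched on by the very kinases that their products turn off, and in macrophages Dusp1 is known as a brake on p38 and on cytokine output after TLR4 stimulation.

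The expected counts over annotated genes came to 13502401, 17848798 and 17824176 in replicates 1 to 3, and a count of 0 allows up to 0.222, 0.168 and 0.168 CPM (counts scaled to the library total). Such floors and the intervals below cover counting error only, because reads that carry no molecular identifier can repeat a molecule. The libraries correlated across genes at 0.962 to 0.977 (Pearson, log2 TPM), and genes are not independent replicates. Detection here means 1 TPM or more in each of the 3 libraries, TPM being a length-scaled abundance that allows genes to be compared with each other. All 10 macrophage markers were detected, with a summed TPM of 1388 to 1452. No neutrophil, B cell, NK cell, mast cell, fibroblast or dendritic cell marker was detected, and these lists summed to 0 to 2.55 TPM. The T cell list held Cd4 (summed TPM of the list 6.69 to 10.3, with Cd3e at 0), the erythroid list held Alas2 (7.34 to 10.7, with Hbb-bt among those at 0) and the endothelial list held 3 of 6 (Pecam1, Kdr and Vwf, 25.4 to 42.8, with Cldn5 at 0). Their part in the levels below was not tested.

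The sequences that the results turn on come first. Dusp1 and Dusp2 have short introns, and some of their annotated transcripts keep 1 of them. Shown are the boundaries of the introns that a retained_intron transcript keeps whole, 5′ to 3′ on the gene's strand, read from the GENCODE M21 transcripts (mm10). Capitals mark the first or last 25 intron bases, and lower case the 20 exon bases next to them.
Dusp1 intron 2, start: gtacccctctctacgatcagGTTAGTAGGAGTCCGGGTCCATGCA
Dusp1 intron 2, end: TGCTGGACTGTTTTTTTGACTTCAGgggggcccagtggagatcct
Dusp1 intron 3, start: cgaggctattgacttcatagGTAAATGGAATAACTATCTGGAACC
Dusp1 intron 3, end: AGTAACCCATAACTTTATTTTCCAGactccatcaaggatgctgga
Dusp2 intron 2, start: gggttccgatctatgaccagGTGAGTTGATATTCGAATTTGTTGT
Dusp2 intron 2, end: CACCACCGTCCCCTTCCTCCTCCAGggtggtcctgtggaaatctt
All 3 introns open with GT and close with AG, the usual splice-site letters. Intron 2 of Dusp1 (chr17:26507205-26507573, minus strand, 369 bases) and intron 2 of Dusp2 (chr2:127336899-127337248, plus strand, 350 bases) sit at matching places in the 2 genes, each followed by an exon of 220 bases. Aligned without gaps, the exon ends before them share 12 of 20 bases and the exon starts after them 15 of 20. The intron ends shown share fewer, 11 of 25 at the start and 9 of 25 at the end. Intron 3 of Dusp1 lies at chr17:26506651-26506984 (334 bases).

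The promoters below show members with and without the letters of the cAMP response element, the site bound by CREB and ATF factors. They are RefSeq windows of 250 bases before to 50 after the gene's start (GRCm38.p6), at chr17:26508423-26508722 (minus strand) for Dusp1, chr2:127335909-127336208 (plus) for Dusp2, chr7:142095235-142095534 (minus) for Dusp8 and chr19:53528895-53529194 (plus) for Dusp5. Capitals mark matches to TGACGTCA, to its inner TGACG on either strand (CGTCA on the other) and to the CArG box, the site of serum response factor.
Dusp1: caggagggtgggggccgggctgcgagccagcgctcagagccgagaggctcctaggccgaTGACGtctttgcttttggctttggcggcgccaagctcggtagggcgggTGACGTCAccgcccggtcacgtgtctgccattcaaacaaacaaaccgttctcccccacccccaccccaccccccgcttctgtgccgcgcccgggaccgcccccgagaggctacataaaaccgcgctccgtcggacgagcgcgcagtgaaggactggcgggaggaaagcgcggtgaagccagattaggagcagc
Dusp2: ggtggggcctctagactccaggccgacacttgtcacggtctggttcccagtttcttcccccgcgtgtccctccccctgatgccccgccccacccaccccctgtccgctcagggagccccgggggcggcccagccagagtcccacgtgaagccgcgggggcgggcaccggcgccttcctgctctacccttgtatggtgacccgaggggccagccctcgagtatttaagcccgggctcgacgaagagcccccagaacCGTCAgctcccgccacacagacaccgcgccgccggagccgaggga
Dusp8: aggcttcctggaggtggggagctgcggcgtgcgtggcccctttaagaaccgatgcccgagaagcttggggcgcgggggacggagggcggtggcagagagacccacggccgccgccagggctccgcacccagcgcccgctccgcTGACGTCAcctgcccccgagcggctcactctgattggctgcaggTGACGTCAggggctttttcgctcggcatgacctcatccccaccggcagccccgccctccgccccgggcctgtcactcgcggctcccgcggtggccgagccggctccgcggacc
Dusp5: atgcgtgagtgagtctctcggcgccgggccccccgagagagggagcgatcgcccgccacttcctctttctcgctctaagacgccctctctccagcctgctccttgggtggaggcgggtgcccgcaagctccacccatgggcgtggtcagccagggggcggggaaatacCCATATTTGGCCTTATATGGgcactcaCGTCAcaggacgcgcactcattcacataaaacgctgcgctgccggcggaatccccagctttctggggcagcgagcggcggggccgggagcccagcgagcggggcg
Promoters were at hand for 8 of the 9 members, all but Dusp4. TGACGTCA was found once in Dusp1, starting at base -143 from the gene's start, and at 2 places in Dusp8, at -107 and -63. The letters occur in 1.79% of 32851 promoters of this length, and at least 2 times in 0.0396% of them (13 promoters). The shorter TGACG, which each TGACGTCA holds on both strands, was found in 5 of 8 members (Dusp1, Dusp2, Dusp5, Dusp8 and Dusp16) and in 20.8% of all promoters. The CArG box was found in Dusp5 only, as a pair at -82 and -72, against 1.63% of all promoters. TATAAA (13.6% of all promoters) and the AP-1 letters TGANTCA (7.81%) were found in none of the 8, both strands searched. The members' windows were 57.3% to 78.7% G and C, and the median over all promoters was 52.7%. As the levels below show, Dusp1 and Dusp8 share TGACGTCA and stand at opposite ends of the order of levels in the first quantification. In the second, Dusp10, whose promoter lacks TGACGTCA, had the lowest mean. Whether these letters bear on the levels was not tested. A match is a description of letters in a window and not a site shown to be bound.

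Dusp1 and Dusp2 were by far the most abundant members in chromatin RNA, and every other member was below 6 TPM in every library of the first quantification. At the bound of 1 TPM, 6 of 9 members were detected (Dusp1, Dusp2, Dusp4, Dusp6, Dusp7 and Dusp16), as were 44.0% of protein-coding genes (9689 of 22028) and 23.0% of all annotated genes. Dusp1 and Dusp2 made up 93.4%, 92.2% and 94.9% of the members' summed TPM in replicates 1 to 3. The members' median of log2(TPM + 1) was 1.73 ± 0.36 (SD, n = 3), between 0.61 over all protein-coding genes and 3.56 over the detected ones. In bulk RNA a lower level from fewer cells with the RNA and one from less RNA per cell cannot be told apart.

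**Figure D1:**
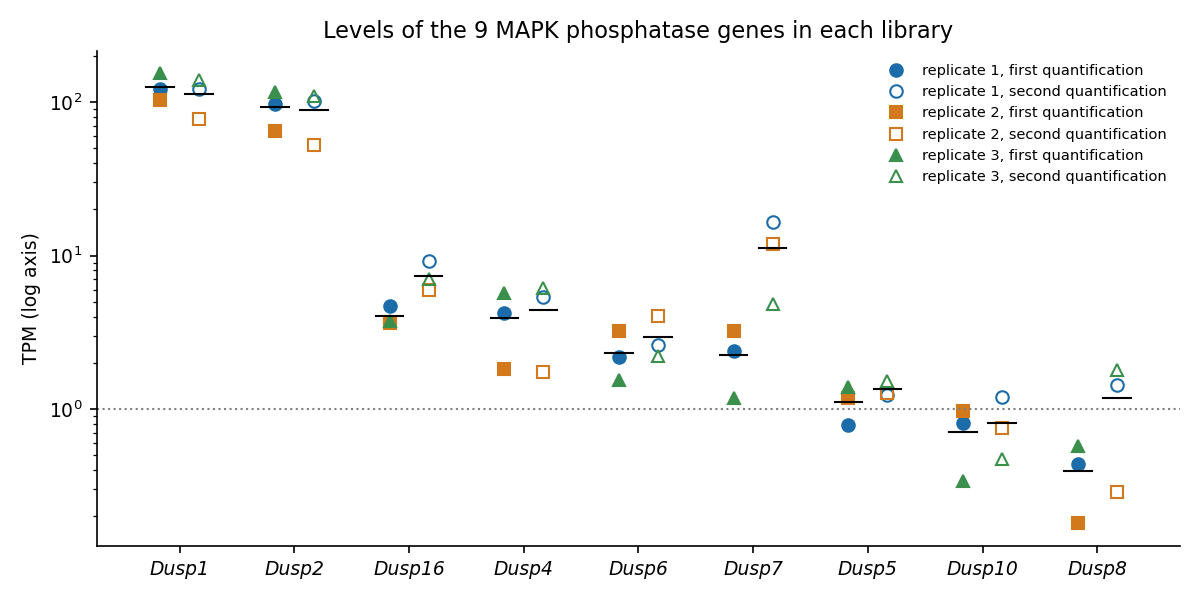
TPM of each member (log axis) in replicates 1 to 3, with filled symbols for the first quantification, open symbols for the second, a short line at each mean and a dotted line at 1 TPM. Dusp1 and Dusp2 lie between 52.8 and 154 TPM in both quantifications, and Dusp7 is the member whose 2 quantifications lie farthest apart.

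Among the nuclear enzymes, Dusp1 (chr17:26505590-26562128, minus strand, whose main transcript Dusp1-202 spans only 2930 bases at chr17:26505590-26508519) stood at 121, 104 and 154 TPM in replicates 1, 2 and 3. Its mean was 126 ± 25.7 (SD, n = 3), from 2351, 2142 and 3679 expected counts, and 96.4% of detected protein-coding genes were lower. The longer gene span comes from the 6-exon model Dusp1-205, which was listed at 0 in the first quantification and overlaps Ergic1 on the other strand; nothing annotated overlaps the main transcript. Dusp2 (chr2:127336159-127338376, plus strand), known from activated lymphocytes and myeloid cells, stood at 97.8, 64.5 and 117 TPM, a mean of 93.1 ± 26.6, above 94.3% of detected protein-coding genes. Both genes were lowest in replicate 2 and highest in replicate 3. Dusp4 (chr8:34807297-34819894, plus strand) stood at 4.23, 1.82 and 5.69 TPM, a mean of 3.91 ± 1.95, with the same order of libraries. Dusp5 (chr19:53529109-53542431, plus strand), which acts on ERK in the nucleus, stood at 0.79, 1.18 and 1.38 TPM, a mean of 1.12 ± 0.30, and missed the detection rule through replicate 1 alone. Its 24, 42.2 and 53 expected counts cannot be split from the antisense gene AC137853.2 with certainty, because the strand setting of the counting is not given in the sources used here.

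The cytoplasmic, ERK-directed pair was low and close together in the first quantification, but not in the second, where Dusp7 was higher in 3 of 3 libraries. Dusp6 (chr10:99263231-99267489, plus strand), a classical ERK feedback gene, stood at 2.18, 3.21 and 1.55 TPM, a mean of 2.31 ± 0.84. Dusp7 (chr9:106368632-106375724, plus strand) stood at 2.37, 3.21 and 1.17 TPM, a mean of 2.25 ± 1.03. Each was highest in replicate 2 and lowest in replicate 3, the reverse of Dusp1, Dusp2 and Dusp4.

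Of the JNK- and p38-directed members only Dusp16 was detected. Dusp16 (chr6:134715468-134792625, minus strand) stood at 4.70, 3.65 and 3.77 TPM, a mean of 4.04 ± 0.57, and overlaps the antisense gene Gm36328. Dusp10 (chr1:184013302-184075636, plus strand), which restrains JNK in immune cells, stood at 0.81, 0.97 and 0.34 TPM. Dusp8 (chr7:142079490-142095843, minus strand) was the lowest at 0.44, 0.18 and 0.57 TPM, from 27, 9 and 45 expected counts. The 9 counts in replicate 2 have an exact Poisson 95% interval of 4.12 to 17.1, and the 15 counts of Dusp10 in replicate 3 one of 8.40 to 24.7, so counting error alone is wide for both.

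Between neighbours in the order of levels, only the top 2 steps exceeded the spread between libraries. Dusp1 was above Dusp2 by 0.46 ± 0.19 on the log2(TPM + 1) scale, higher in 3 of 3 libraries. Dusp2 was above Dusp16, the next member, by 4.19 ± 0.41, also in 3 of 3. Each has an exact two-sided sign-flip permutation p of 0.25, the smallest that 3 libraries allow, or 0.667 after Benjamini-Hochberg adjustment over the 8 pairs, so no pair could pass 0.05. The other 6 steps, from Dusp16 down through Dusp4, Dusp6, Dusp7, Dusp5 and Dusp10 to Dusp8, were not larger than the spread of their differences. Without replicate 3, 5 of the 8 steps exceeded it.

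The second quantification, made from reads and a transcript index, kept Dusp1 and Dusp2 on top at 113 ± 31.5 and 88.2 ± 30.9 TPM. It put their part of the summed TPM at 86.7% ± 4.0 and called 7 of 9 members detected, adding Dusp5, where 53.7% of protein-coding genes passed. Dusp7 moved most, to 16.6, 11.9 and 4.83 TPM, a mean of 11.1 ± 5.92 that is 4.94 times the first. Most of that, 67.3% ± 14.2 of the gene's TPM, was assigned to Dusp7-202, a processed_transcript of 270 bases that the first quantification listed at 0. It rested on 22.3, 24.2 and 5.62 estimated counts, and few counts on a short model give a high TPM. Dusp16 stood at 7.39 ± 1.65 and Dusp8 at 1.17 ± 0.79, so that the means of Dusp7 and Dusp8 ranked above those of Dusp16 and Dusp10 in this quantification.

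Transcripts that keep an intron held nearly all of the Dusp1 signal, and the larger part of the Dusp2 signal by TPM but not by expected counts. The share used here is the part of the TPM of all transcripts of a gene that lies in those of type retained_intron. For Dusp1 it was 97.3%, 94.8% and 94.3% in replicates 1 to 3, a mean of 95.5% ± 1.62 (SD, n = 3). For Dusp2 it was 65.5%, 60.7% and 58.7%, a mean of 61.6% ± 3.48. Each share is a model estimate, since reads in shared exons are divided between transcripts, and the ranges of the 2 genes did not overlap. Both had more TPM in retained_intron than in protein_coding transcripts in every library, by 91.0 ± 3.24 percentage points for Dusp1 and 23.2 ± 6.96 for Dusp2 (exact sign-flip permutation p = 0.25 each, the smallest possible, two-sided). Among the 4730 genes with both kinds of transcript and at least 5 TPM in every library, 42.3% did so too, with a median share of 46.0% (quartiles 30.8% and 60.6%). The share of Dusp1 was reached by 18 of these genes, 0.381%, and that of Dusp2 by 1123, 23.7%. Dusp1 and Dusp2 are themselves among the 4730 genes and are counted in these numbers and in the 42.3%. With the second quantification the shares were 93.7% ± 0.87 for Dusp1 and 61.2% ± 3.66 for Dusp2. There 49.7% of the 4730 genes had more in retained_intron than in protein_coding transcripts in every library, with a median share of 44.9%.

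**Figure D2:**
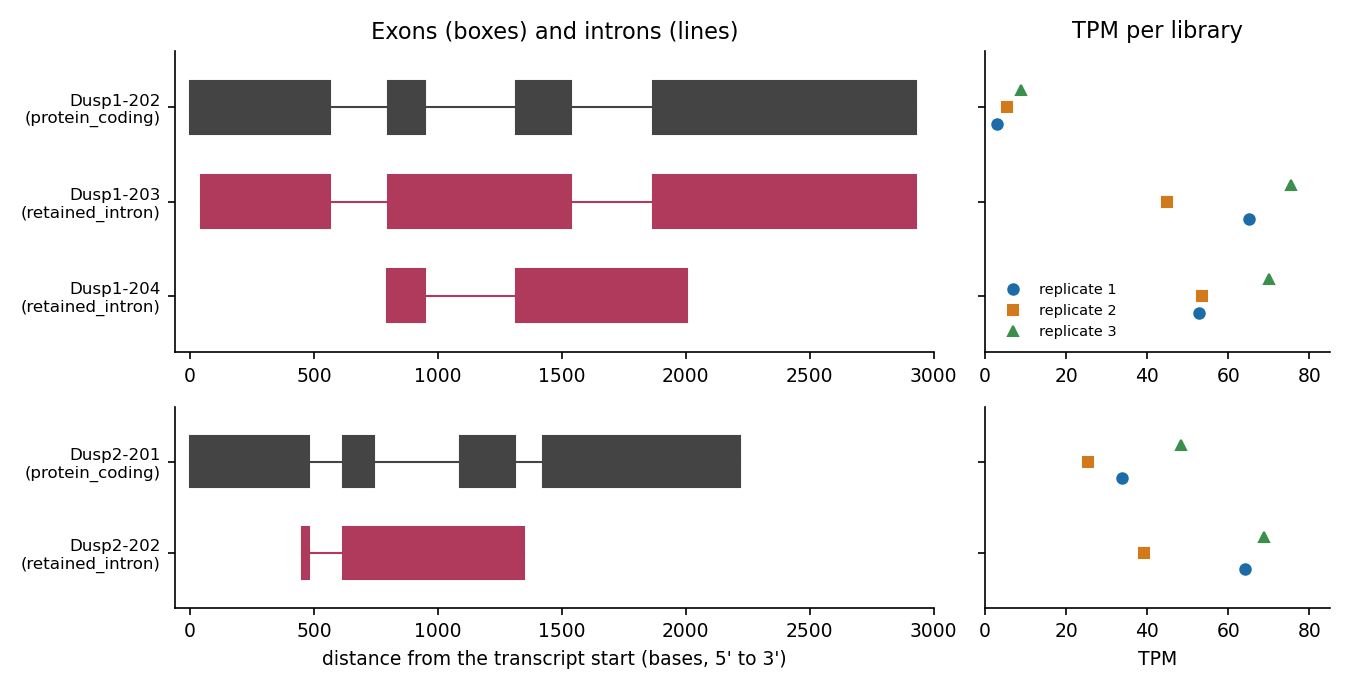
Left, exons as boxes and introns as lines of the 3 main Dusp1 transcripts and both Dusp2 transcripts, by distance in bases from the start of the protein_coding one (grey, with retained_intron in red). Right, TPM of each transcript in replicates 1 to 3, first quantification, where both Dusp1 retained_intron transcripts lie at 44.8 TPM or above and the protein_coding one at 8.74 or below.

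The Dusp1 signal was split between 2 transcripts that keep different introns. Dusp1-203 (2313 bases), which keeps intron 2 and lacks introns 1 and 3, stood at 65.2, 44.8 and 75.5 TPM. Dusp1-204 (839 bases), which keeps intron 3 and lacks intron 2, stood at 52.9, 53.4 and 70.1 TPM. The split depends on the unit: by expected counts, not scaled to length, Dusp1-203 had 1831, 1489 and 2695 and the shorter Dusp1-204 had 445, 501 and 721. The spliced, protein_coding Dusp1-202 (1990 bases) stood at 2.91, 5.41 and 8.74 TPM, under both others in every library. No annotated Dusp1 transcript keeps all 3 introns, so an RNA with every intron in place has no model of its own in these tables. Intron bases are 369 of 2313 in Dusp1-203 and 338 of 839 in Dusp1-204, and the rest of each is exon sequence that the spliced form has too.

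For Dusp2 the spliced form was a larger part. Dusp2-202 (756 bases), which keeps intron 2 and runs into intron 3, stood at 64.0, 39.1 and 68.8 TPM. Dusp2-201 (1617 bases), protein_coding, stood at 33.8, 25.4 and 48.4 TPM. Because Dusp2-202 is the shorter model, its part depends on the unit: by expected counts, not scaled to length, it held 37.8% ± 4.15 and the difference turned to -24.5 ± 8.30 points. For Dusp1 the share by expected counts was 94.2% ± 2.27. The direction for Dusp2 holds for TPM and not for counts, and that for Dusp1 holds for both. The 4730 genes shifted between the units too. By counts 26.2% of them had more in retained_intron than in protein_coding transcripts in every library, against 42.3% by TPM. Their median share was 29.2% by counts and 46.0% by TPM. The share of Dusp2 by counts was reached by 39.7% of them and that of Dusp1 by 0.846%.

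**Figure D3:**
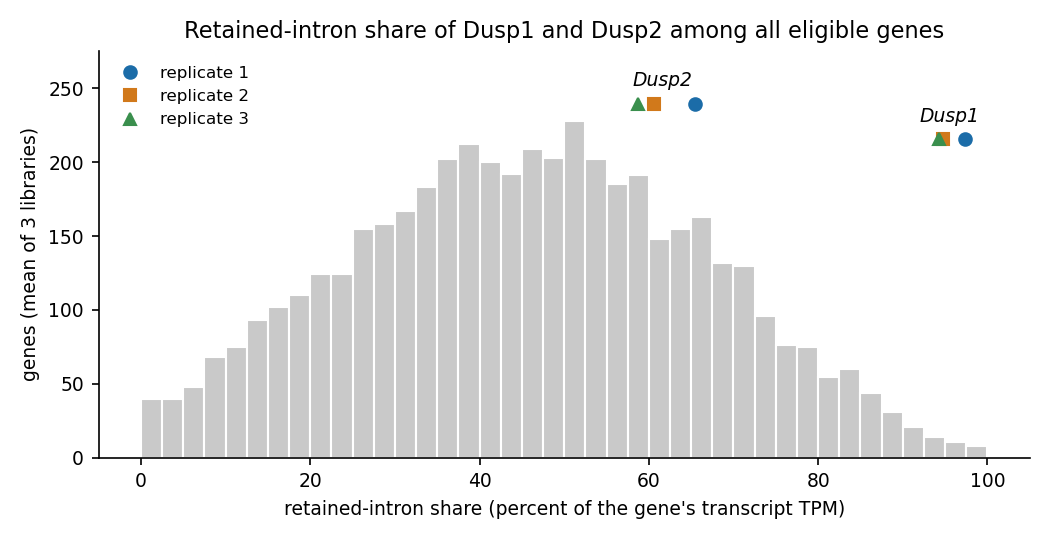
Histogram of the mean retained-intron share (percent of transcript TPM) of the 4730 genes with both kinds of transcript and at least 5 TPM in every library, with the value of Dusp1 and Dusp2 in each library as symbols above it. Dusp1 lies at 94.3% or more in each library, at the right end of the histogram.

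Retained-intron shares cannot be given for most members, because only Dusp1, Dusp2 and Dusp16 have a transcript of that type. The single one of Dusp16, Dusp16-206 (629 bases, partly inside intron 4), held 6.17%, 24.1% and 0% of the gene's TPM, from 5.27 counts at most. Introns that no annotated transcript keeps are not part of these tables, such as intron 1 of Dusp16 with its 30842 bases. The coding part of the signal depended on the quantification for 3 members. For Dusp7, protein_coding transcripts held 90.7% ± 8.90 of the TPM in the first and 32.2% ± 14.9 in the second. For Dusp16 they held 87.6% ± 16.4 and 50.3% ± 7.72, and for Dusp6 75.9% ± 6.13 and 48.8% ± 10.6. In Dusp6 the processed_transcript Dusp6-203 (876 bases) was listed at 0 by the first and held 23.5% ± 6.42 in the second. Dusp4 and Dusp5 have 1 transcript each, and the 2 transcripts of Dusp8 and of Dusp10 are all protein_coding.

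The members fell into unlike patterns over the 3 libraries. On log2 CPM after TMM scaling, which removes differences in library size and composition, Dusp1 deviated from its mean by -0.02, -0.34 and 0.37 in replicates 1 to 3, Dusp2 by 0.04, -0.49 and 0.45, and Dusp4 by 0.21, -0.93 and 0.72. Dusp6 went the other way at -0.11, 0.63 and -0.52, as did Dusp7 at 0.02, 0.52 and -0.54. Of the 6 detected members, 3 were highest in replicate 3 and lowest in replicate 2, an order that 9.21% of detected protein-coding genes had by TPM and 13.6% by TMM-scaled counts. Another 2 were highest in replicate 2 and lowest in replicate 3, against 15.4% by TPM and 9.80% by TMM-scaled counts. In the second quantification Dusp7 was instead highest in replicate 1 and lowest in replicate 3, which left Dusp6 alone with the second order (6.95% of the same genes), while Dusp1, Dusp2 and Dusp4 kept the first (11.4%). Replicate 2 was made from the least RNA, 250 ng, and replicate 1 was sequenced least deeply. Starting amount and replicate cannot be told apart here.

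**Figure D4:**
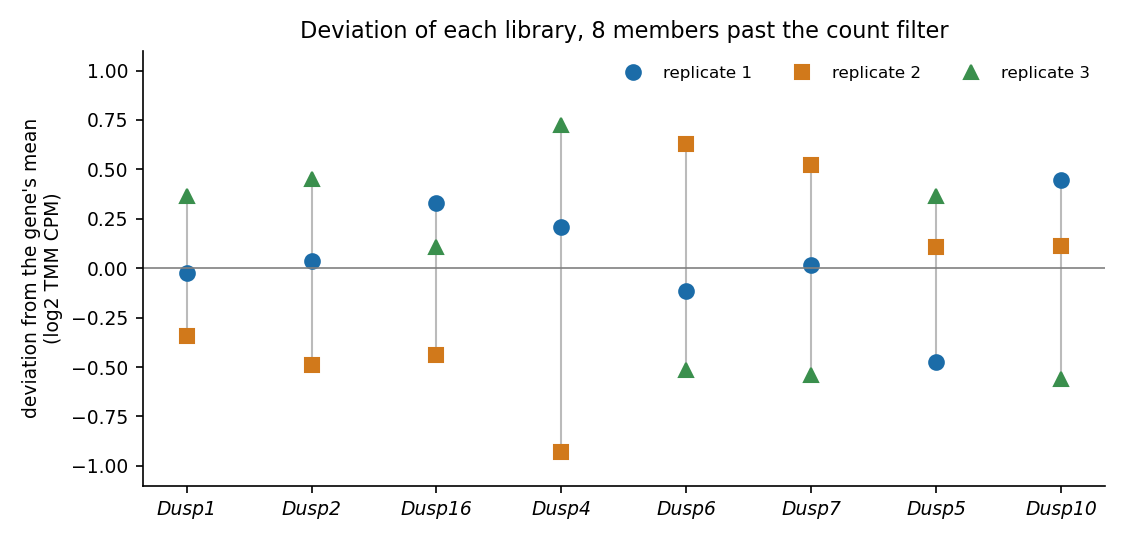
Deviation of each library from the gene's mean on the log2 TMM-scaled CPM scale, for the 8 members past the low-count filter, in the order of their levels. Replicate 2 is the lowest point for Dusp1, Dusp2, Dusp4 and Dusp16 and the highest for Dusp6 and Dusp7.

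Dusp4 and Dusp6 had the largest spread between libraries of the 8 members past the low-count filter, and Dusp1 and Dusp16 the smallest. The biological coefficient of variation (BCV, edgeR's estimate of the relative spread beyond counting error) was 0.20 for Dusp1, 0.218 for Dusp16 and 0.225 for Dusp2. It was 0.33 for Dusp4, above that of 97.6% of genes, and 0.28 for Dusp6. The median of the 8 members that passed the low-count filter was 0.26, beside 0.20 over 14193 genes. Dusp8 did not pass that filter. The comparison with all genes was not matched for abundance. Dusp5, Dusp6, Dusp7 and Dusp10, with a BCV of 0.25 to 0.28, had only 15 to 122 counts per library. Without the filter the order turned, with 0.269 over the 9 members and 0.279 over all 24206 genes. With 3 libraries edgeR draws the values of single genes toward those of other genes, so they understate a large spread. In simulated data the median BCV of genes without a raised spread came out too high, at 0.280 for a true 0.224.

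Most of the kinases upstream and downstream of the phosphatases were detected. All 7 MAP kinase kinases, all 12 kinases above them and all 10 MAPK-activated kinases were detected, and 6 of 10 MAP kinases were. Of all protein-coding genes 44.0% were. In the first quantification the most abundant of each were Map2k2 at 44.9 ± 15.9 TPM, Map3k8 (Tpl2, which links TLR4 to ERK) at 101 ± 35.6, Mknk1 (a kinase of the cap-binding protein eIF4E) at 109 ± 15.2 and Mapk14 (p38α) at 46.4 ± 2.99. Mapk9 (JNK2) stood at 35.9 ± 7.36, while Mapk13 was the lowest MAP kinase at 0.097 ± 0.091. Map2k5 and Map2k1 followed Map2k2 at 33.1 ± 0.99 and 24.9 ± 1.67, and Map2k6 was lowest at 1.13 ± 0.12. Araf stood at 56.8 ± 2.39, and Map3k5 was lowest at 6.01 ± 1.26. Mapkapk5 and Mapkapk3 followed Mknk1 at 39.3 ± 4.44 and 33.9 ± 3.70, and Rps6ka2 was lowest at 3.54 ± 1.00. These orders depend on the quantification: in the second, Mapkapk2 (107 TPM) came next after Mknk1 (165), Map2k4 (53.2) next after Map2k2 (60.6), and Map3k1 (103.1) was level with Map3k8 (102.8). In the first quantification the mean of Dusp1 was above that of every kinase listed, and the mean of Dusp2 below those of Mknk1 and Map3k8 only. The mean TPM of the other 7 members ran from 0.397 to 4.04 there. In the second quantification Mknk1 (165) was above Dusp1 (113), and Dusp2 (88.2) was below Mknk1, Mapkapk2, Map3k1, Map3k8 and Mapk14 (91.2).

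Other dual-specificity phosphatases and other negative regulators of the pathway were detected in part. The share of all protein-coding genes detected was the 44.0% given above, and 53.7% in the second quantification. Of 20 other dual-specificity phosphatases 10 were detected (12 in the second quantification). In the first quantification they were led by the cofilin phosphatase Ssh3 at 120 ± 20.4 TPM, the RNA phosphatase Dusp11 at 59.2 ± 7.26 and Dusp3 at 11.4 ± 0.76, whereas in the second Dusp11 (93.7) was above Ssh3 (85.8). Dusp9, which like Dusp6 and Dusp7 is a cytoplasmic ERK phosphatase, had 0 counts in every library of the first quantification and 0.21 ± 0.04 TPM in the second. Among 8 other phosphatases of MAP kinases 6 were detected (7 in the second quantification), led by Ppp2ca at 26.2 ± 2.61, Ppm1b at 20.8 ± 2.48 and Ppm1a at 15.3 ± 1.85. Ptprr was listed at 0 in the first quantification and at 6.08 ± 1.05 TPM in the second, so its level is uncertain. Of 7 Sprouty and Spred genes, feedback inhibitors of the ERK pathway, 2 were detected (3 in the second quantification): Spred1 at 17.6 ± 4.85 and Spred3 at 3.76 ± 1.48. Spred2 had a mean of 1.39 ± 0.48 and Spry4 was the lowest at 0.0033. Of the other listed genes, 32 had both kinds of transcript and at least 5 TPM in every library. None of the 32 reached the retained-intron share of Dusp1 and 8 reached that of Dusp2. Of the 4730 genes above, 0.381% and 23.7% did so. Below that bound, Ptpn5 (0.58, 0.74 and 1.09 TPM) had a share of 100%.

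Of 18 listed early genes and transcription factors linked to MAP kinases 16 were detected, beside 44.0% of all protein-coding genes. The list is not limited to early genes, since the detected ones include the transcription factors Elk1, Elk4 and Creb1. It was led by Zfp36 at 178 ± 42.9 TPM, Junb at 132 ± 20.99 and Fos at 84.2 ± 38.6, while Fosl1 was at 0. Junb was also among the protein-coding genes whose levels lay nearest to those of Dusp1, measured as the root mean square difference of log2(TPM + 1) over the 3 libraries, with 22027 genes compared. Vegfa was nearest at 0.075 (116, 100.4 and 144 TPM), then Rnf149 at 0.082 (113, 96.5 and 157 TPM) and Junb at 0.12 (120.4, 120.2 and 157 TPM). For Dusp2 the nearest were Nlrp3 at 0.13 (97.2, 66.2 and 100.1 TPM), Cdkn1a at 0.15 (85.5, 71.2 and 109 TPM) and Fam20c at 0.17 (116, 70.4 and 127 TPM). Within 0.25 there were 21 genes for Dusp1 and 7 for Dusp2. This measure reads level as much as pattern, and 3 libraries carry little of the latter.

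**Figure D5:**
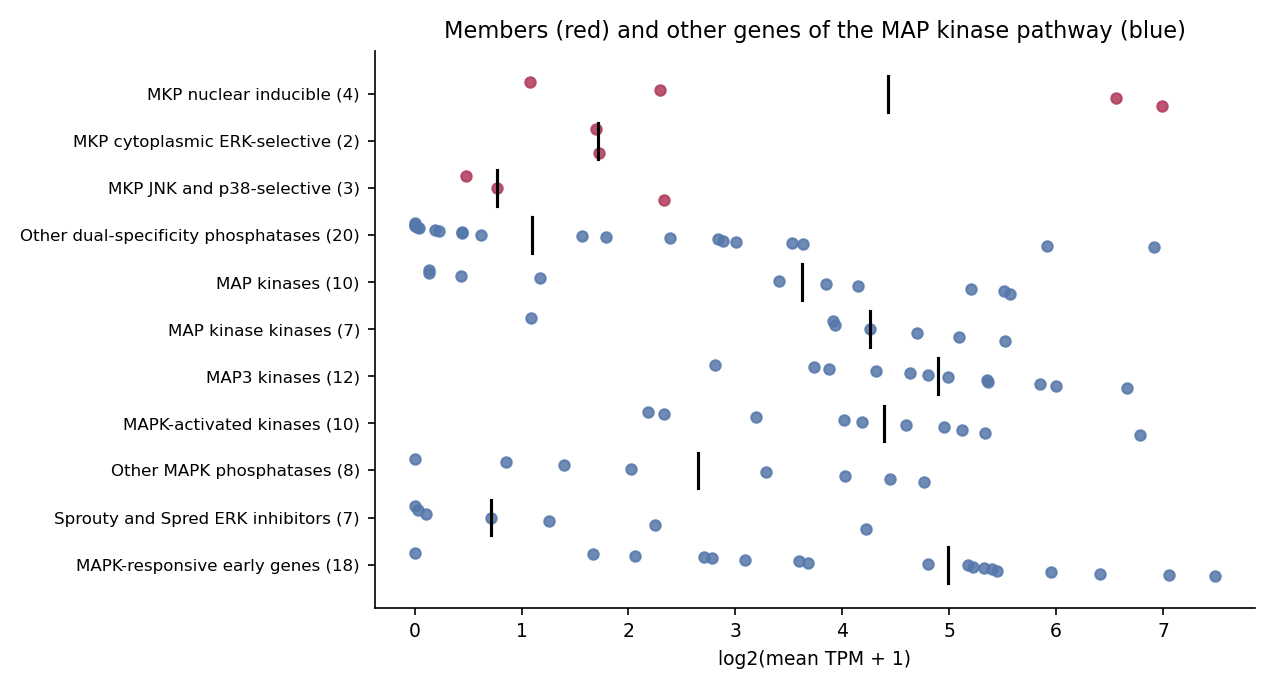
Level of each member (red) and of 92 other listed genes (blue), as log2(mean TPM + 1) over 3 libraries in the first quantification, by list with the number of genes in brackets and a black line at each list's median. Dusp1 and Dusp2 are the 2 rightmost red points in the top row, and the other 7 members lie below 2.5.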

How the data were processed

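Ribosome-depleted total RNA of the chromatin fraction was measured in 3 libraries of 1 condition. Per the file headers, the deposited gene table and first transcript table hold expected counts, TPM and a posterior mean of TPM under RSEM's column names, and the second transcript table holds estimated counts and TPM under kallisto's. Per the notes deposited beside the files, the build is mm10 and the annotation GENCODE M21; aligner and strandedness are not given in the sources that were used. Of 81881 rows in a gene table, 55536 annotated genes were used; the other rows, which name no gene of the annotation, held 1.75%, 0.396% and 0.239% of expected counts in replicates 1 to 3. Chi-square per degree of freedom was 24.3 to 109 between libraries, so none repeated another. The second quantification was summed per gene. Fixed settings were a detection bound of 1 TPM, a pseudocount of 1 TPM, a gene bound of 5 TPM for transcript shares and 95% exact Poisson intervals. BCV came from edgeR 4.0.16 (R 4.3.3) on rounded expected counts, with filterByExpr, TMM and an intercept only. It was tested on simulated data, where large values came out too low (median 0.497 for a true 0.877). The values of the other genes came out too high (0.280 for a true 0.224). DESeq2 1.42.0 gave alternative size factors. Within-library differences had an exact sign-flip permutation test, two-sided. The rest used Python 3.11.15 with pandas 2.3.3, numpy 2.4.6 and matplotlib 3.10.9. Members and lists were chosen with earlier results of these data known. Named were all members, their transcripts with at least 5% of the gene's TPM, the 3 genes nearest to Dusp1 and to Dusp2, and the 3 highest and the lowest gene of each other list, of which a few are not reported here. Library orders by TMM and in the second quantification, and alternatives for single members, were chosen after seeing the data. Promoters came from RefSeq (GRCm38.p6).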

Additional observations from a re-analysis of the deposited data

How the results depend on the processing

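The number of detected members was 7 with the second quantification and with a bound of 0.5 TPM, and 6 with posterior mean TPM. It was 8 with TPM rescaled over protein-coding genes and 2 with a bound of 5 TPM. Of all protein-coding genes 53.7% were detected in the second quantification. That share is not given for the other settings, so their counts have no background to be set beside. Protein-coding genes held 29.9%, 26.4% and 25.4% of TPM in replicates 1 to 3, so the rescaling raises each of them. The members' median level of 1.73 became 2.52 with the second quantification and 1.25 with a pseudocount of 0.1 TPM. With TPM rescaled over protein-coding genes it became 3.24. It was 2.55 with TMM-scaled and with DESeq2-scaled CPM, which are other units, and 2.36 over detected members only. Leaving out each library in turn gave 1.55 to 1.91. The number of neighbouring steps beyond their spread was 2, 5 with the second quantification and 3 to 5 with each library left out. Dusp6 minus Dusp7 reversed to -1.50 with the second quantification and -0.38 with posterior mean TPM, and ran from -0.042 to 0.12 with each library left out. Dusp10 minus Dusp8 reversed to -0.21 with the second quantification, and Dusp16 minus Dusp4 ran from -0.18 to 0.42 with each library left out. The median retained-intron share of Dusp1 and Dusp2, 78.5%, was 66.0% by expected counts, 77.1% to 79.6% with each library left out, and 61.6% with a gene bound of 1 TPM or none, since Dusp16 then enters. The Dusp2 difference of 23.2 points reversed to -24.5 by expected counts. The members' median BCV was 0.21 to 0.27 under its alternatives, and below that of all genes (0.269 against 0.279) only without a filter on low counts. The causes were not tested where none is given. No paired analysis was possible because 1 group leaves no samples to pair between groups; the within-library differences are between genes or transcripts. Depth limits Dusp5, Dusp8 and Dusp10 most, at 9 to 53 counts per library.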
